A study of Mus musculus with 3 samples.

Results

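The transcripts described here carry the annotation biotype "retained intron" and reached a TPM (a level scaled to library depth and corrected for transcript length) of 10 or more in each of 3 chromatin RNA libraries. Membership was set on the RSEM-format transcript tables, which hold expected counts and TPM. A separate set of tables in the kallisto format, with estimated counts and TPM, was not used to choose them. Of 141767 annotated transcripts, 21848 are of this biotype, and 2018 of those passed (9.24%). They belong to 1227 parent genes, 1214 of them protein-coding. Their levels in the RSEM-format tables are therefore the values that chose them and are given as a description. The cells were bone-marrow-derived macrophages of C57BL/6J mice, primary cells grown from marrow precursors. All libraries come from 1 condition, in which cells received Lipid A (100 ng/ml) for 12 h, were kept without it for 12 h, and met it again at 100 ng/ml for 10 min. TLR4, a receptor of the innate immune system, recognises Lipid A, the membrane anchor of lipopolysaccharide from bacteria. RNA of the chromatin fraction was depleted of ribosomal RNA and sequenced as total RNA. The libraries are labelled as biological replicates that share a donor identifier, with RNA inputs of 1 ug, 250 ng and 500 ng in replicates 1, 2 and 3. No untreated library and no library of cytoplasmic RNA was analysed here, so nothing below is a response to Lipid A or an enrichment on chromatin, and no test between conditions was made. Unless another number is given, values are mean ± SD over the 3 libraries (n = 3).

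Introns are removed from most transcripts while RNA polymerase II is still copying the gene or soon after, and chromatin RNA therefore holds many transcripts that are not yet fully spliced. A retained-intron model in the GENCODE annotation is a non-coding transcript thought to contain intronic sequence relative to coding transcripts of the same gene. Some introns are known to stay in finished, polyadenylated transcripts that remain in the nucleus, and genes of splicing factors and of the CLK kinases, which phosphorylate SR splicing proteins, are well-known examples. In RNA from chromatin a transcript on its way to being spliced and one that keeps its intron give the same intronic reads, and the tables cannot tell them apart.

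Expected counts on annotated transcripts came to 13529747, 19932941 and 18212219 in replicates 1, 2 and 3, and estimated counts to 20404994, 34868851 and 31179355. Markers of macrophages were present, with all 12 at 1 TPM or more in each library and a summed level of 1569 to 1898 TPM. None of 10 neutrophil, 7 B cell and 7 fibroblast or stromal markers reached 1 TPM in all libraries, while 1 of 8 T cell, 2 of 6 dendritic cell and 1 of 6 erythroid markers did. The summed levels of these lists were at most 1.06, 1.25, 1.65, 9.02, 13.4 and 15.3 TPM, in that order. Ly6g, S100a8, S100a9 and Cd3e were at 0 in every library.

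The sequences that define these models are the splice sites that they contain unspliced. They are shown for the most abundant members, read from the GENCODE M21 transcripts on the mm10 (GRCm38) build. For members that hold a whole annotated intron, 9 bases around its 5′ splice site (3 of exon, 6 of intron) and 23 around its 3′ splice site (20 of intron, 3 of exon) are printed on the strand of the gene, with the GT and AG of the intron ends in capitals.
Rsrp1-204, 5′ site: gagGTaagt
Rsrp1-204, 3′ site: aaaattctcttcctctttAGcat
Lilrb4a-209, 5′ site: cagGTaagc
Lilrb4a-209, 3′ site: tctccatcaacctctggcAGaaa
Xdh-206, 5′ site: aagGTacgg
Xdh-206, 3′ site: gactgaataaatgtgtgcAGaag
The Rsrp1 intron (chr4:134925433-134926734, plus strand, 1302 bases) lies within the coding sequence. It is spliced out in 1 other annotated transcript. The Lilrb4a intron (chr10:51492164-51493169, plus strand, 1006 bases) lies within the coding sequence and is spliced out in 8 other transcripts of the gene. The Xdh intron (chr17:73889411-73891110, minus strand, 1700 bases) is an intron of 1 non-coding transcript and of no coding one.

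Whole introns are short enough to print for Tcirg1-203 and Fth1-202, which each hold 1 annotated intron within the coding sequence, with its first and last 2 bases in capitals.
Tcirg1-203, intron: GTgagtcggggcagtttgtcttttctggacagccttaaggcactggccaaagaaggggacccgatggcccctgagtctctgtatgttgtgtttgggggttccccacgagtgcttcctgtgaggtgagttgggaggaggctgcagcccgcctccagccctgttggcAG
Fth1-202, intron: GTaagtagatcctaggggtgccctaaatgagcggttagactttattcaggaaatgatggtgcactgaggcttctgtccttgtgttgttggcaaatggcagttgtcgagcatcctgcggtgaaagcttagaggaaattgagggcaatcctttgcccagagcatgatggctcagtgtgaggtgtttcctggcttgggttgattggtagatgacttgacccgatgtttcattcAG
The Tcirg1 intron (chr19:3903173-3903339, minus strand) has 167 bases and 59.9% G or C, and 5 other transcripts splice it. The Fth1 intron (chr19:9984328-9984559, plus strand) has 232 bases and 48.3% G or C, and 7 other transcripts splice it.

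Other abundant members contain no whole intron. Their models run across a splice site and begin or end within the intron. For each, the 3′ site of the coding intron of which it holds most, or that most transcripts splice, is shown with the same letters in capitals.
Sirpa-212, 3′ site: cttttctttttctctttcAGcca
Sat1-205, 3′ site: atgggatactctgattacAGgac
Lilrb4a-206, 3′ site: tcattgtctccttgctgcAGaac
H2-K1-215, 3′ site: tttgttttgttttaccctAGgct
Mx1-208, 3′ site: cctctcttctgttcccttAGcat
Ikbke-207, 3′ site: gacagagtctttgtctgcAGctg
Sirpa-212 holds 518 bases of the intron at chr2:129618571-129621202 (plus strand, 2632 bases), and Sat1-205 holds 770 bases of the intron at chrX:155214135-155215600 (minus strand, 1466 bases). Lilrb4a-206 holds 778 bases of the intron at chr10:51494846-51495993 (plus strand, 1148 bases), and Ikbke-207 holds 294 bases of the intron at chr1:131270251-131270886 (minus strand, 636 bases). H2-K1-215 and Mx1-208 reach only 20 and 26 bases into their introns, at chr17:33996655-33996826 and chr16:97452852-97454024 (both minus strand, 172 and 1173 bases). All of these introns lie within the coding sequence of at least 1 coding transcript. Sirpa-212 also runs over 5′ sites and H2-K1-215 over another 3′ site. A read that falls in the exonic part of such a model does not distinguish it from the spliced transcripts of the gene.

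Across the whole set, 736 members (36.5%) held at least 1 complete intron of another transcript of their gene, counting introns of 30 bases or more. Another 1275 (63.2%) only ran over splice sites. These were 642 over 5′ sites alone (31.8%), 380 over 3′ sites alone (18.8%) and 253 over sites of both kinds without any whole intron (12.5%). The remaining 7 crossed no annotated site. Among the 19830 retained-intron transcripts that did not pass, 31.8% held a whole intron and 67.6% only ran over sites. The members were more intronic than those, with a median of 53.8% of their bases lying in introns of the gene's coding transcripts against 39.6%. More than 50% of the bases were intronic in 1105 of the 1999 members for which this could be computed (55.3%), against 38.2% of the transcripts that did not pass. These are descriptions of 2 sets chosen by level, and the difference was not tested. Over 90% of bases were intronic in 182 members, and 5 members had no intronic base at all. Members with a whole intron were longer than those that only ran over sites, with a median of 2503.5 against 879 bases, and rested on more reads, with a median of 710 against 287 expected counts per library.

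**Figure D1:**
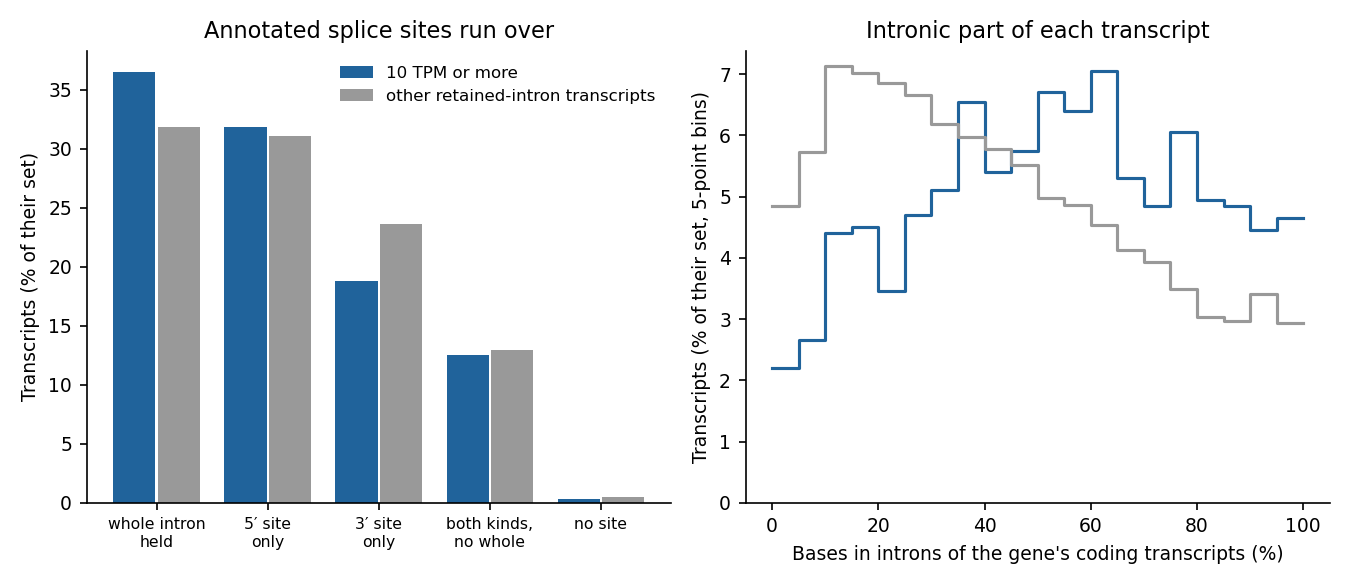
Left, share of transcripts (%) by the annotated splice sites that their exons run over, for the 2018 members (10 TPM or more, blue) and the 19830 other retained-intron transcripts (grey). Right, the same sets by the share of their bases that lies in introns of the gene's coding transcripts, in bins of 5 points; the members lie further to the right, with a median of 53.8% against 39.6%.

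The 736 members with a complete intron held 1345 different introns in 550 genes. Their median length was 398 bases (middle 50% of introns, 163 to 944), and 306 of them (22.8%) were under 150 bases. All introns of coding transcripts, pooled over the 1227 parent genes whether or not a member held a whole intron, had a median of 1296.5 bases, and 11.0% of those were under 150. The 9051 introns held by other retained-intron transcripts and by no member were shorter than the members' introns, with a median of 277 bases and 30.7% under 150. They also had more G and C, at a median of 51.5% against 47.1% for the members' introns. Introns began with GT and ended with AG in 1310 of 1345 cases (97.4%), and 22 had GC and AG, against 97.9% and 1.41% among the other retained-intron transcripts. Of the members' introns 935 lay within a coding sequence, 77 in a 5′ UTR and 18 in a 3′ UTR, and 315 were introns of non-coding transcripts only. The letters that open most introns of the minor, U12-type spliceosome, ATATCCTT or GTATCCTT at the first intron bases on the gene's strand, were found in 7 of 1345 introns (0.520%) and in 37 of 9051 of the others (0.409%). Genes whose members carried them included Gbp5 and Gbp6, which are interferon-induced GTPases, the U11/U12 particle gene Snrnp48, the cohesin loader gene Mau2 and the myosin gene Myh9, named because so few carried the letters.

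**Figure D2:**
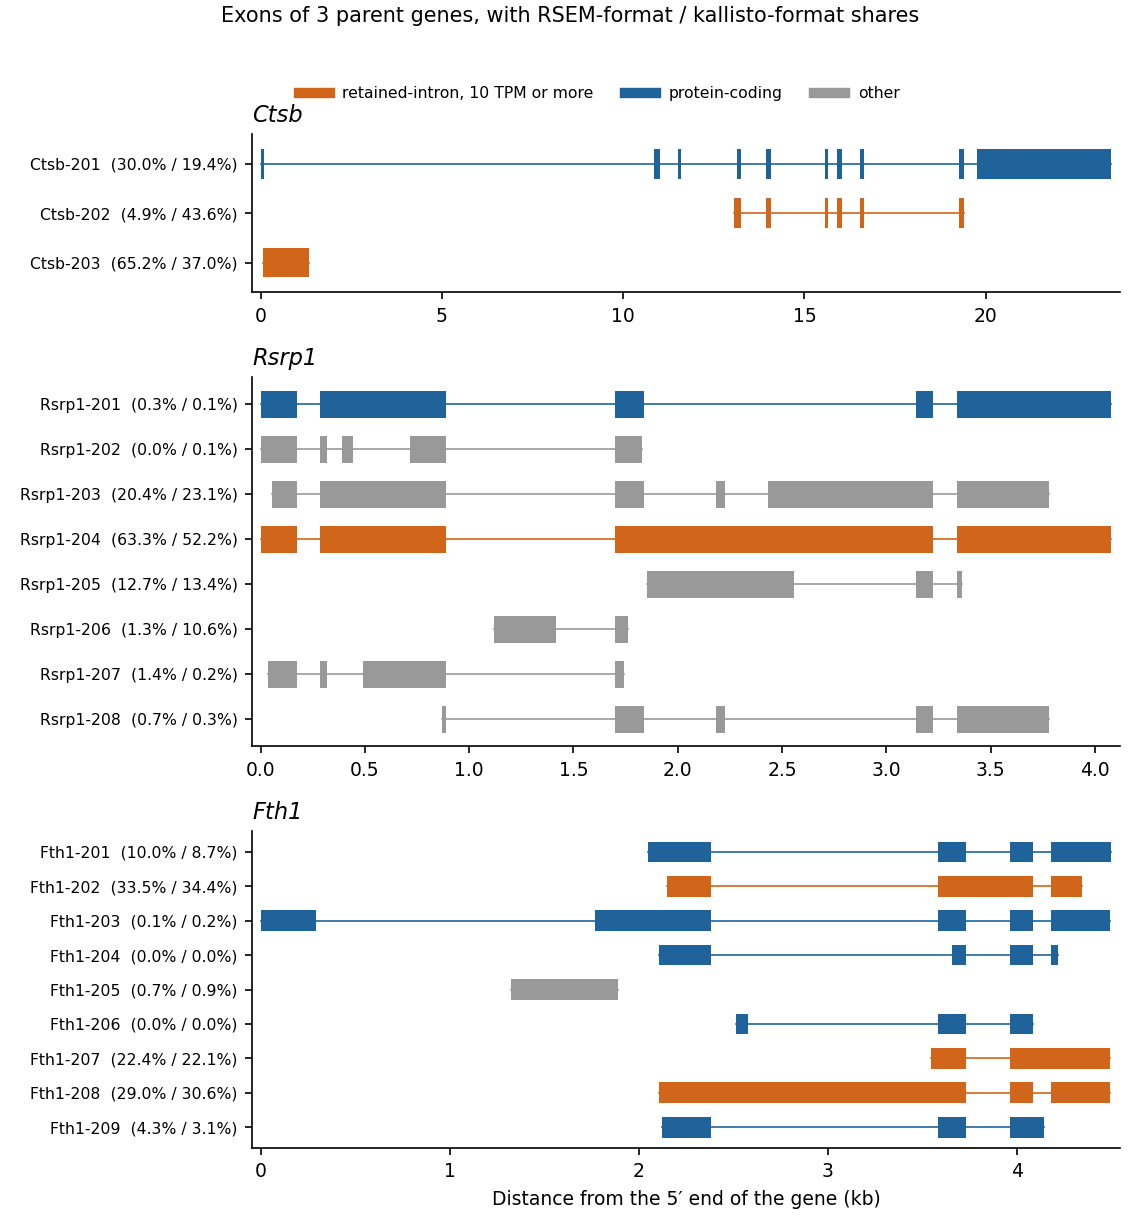
Exons (boxes) and introns (lines) of every annotated transcript of Ctsb, Rsrp1 and Fth1, by distance from the 5′ end of the gene in kb, with each transcript's mean share of the gene's TPM in the RSEM-format and kallisto-format tables in brackets. Members are orange, coding transcripts blue; Rsrp1-204 and Fth1-202 contain whole introns, while Ctsb-203 is a stretch of 1 exon that ends inside the first intron.

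Together the members summed to 66036, 64375 and 55514 TPM in the RSEM-format tables of replicates 1, 2 and 3. Those in protein-coding genes made up 20.9% ± 0.868 of the TPM of all protein-coding genes (SD, n = 3), and all members made up 56.3% ± 2.05 of the TPM of all retained-intron transcripts. In the kallisto-format tables these shares were lower, at 15.9% ± 0.745 and 47.2% ± 2.36, although the members' summed TPM was 76645, 60811 and 56220. All protein-coding genes summed to 293691 ± 18474 TPM in the RSEM-format and 400848 ± 46720 TPM in the kallisto-format tables. The typical member was not far above the limit: the median of their mean TPM was 20.1, the middle 50% ran from 14.6 to 30.8, and 1002 were under 20 TPM. At the upper end 63 members reached a mean of 100 TPM, 7 reached 300 and 3 reached 500. Just inside the limit were Ube3a-205 (10.4, 12.8 and 10.0 TPM in replicates 1 to 3), Khdrbs1-204 (14.3, 15.2 and 10.0) and Ptk2b-204 (12.9, 13.6 and 10.0). Just outside it were Clk1-205 (12.1, 10.7 and 9.99), Trim3-209 (9.99, 12.9 and 10.7) and Matr3-209 (9.99, 17.7 and 16.1). TPM values at the limit rest on few reads for short models: 166 members are under 500 bases, and 387 had under 100 expected counts in at least 1 library. In bulk RNA a level cannot separate more RNA per cell from more cells that make it.

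The highest member by mean RSEM-format TPM was Rsrp1-204, at 795, 1084 and 797 TPM in replicates 1, 2 and 3. It stood at 551, 725 and 542 TPM in the kallisto-format tables, where Lilrb4a-206 had the higher mean, 844 ± 248 TPM. Rsrp1 encodes an arginine- and serine-rich protein. Rsrp1-204, of 3051 bases at chr4:134923592-134927671, made up 63.3% ± 5.5 of the gene's TPM in the first and 52.2% ± 12.8 in the second quantification. The gene's 1 coding transcript, Rsrp1-201, stood at 3.43 ± 2.24 and 1.56 ± 0.931 TPM, so it was far below the member in every library. Of the rest, the non-coding Rsrp1-203 was the highest, at 283 ± 20.0 and 279 ± 109 TPM.

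Fth1, which encodes the heavy chain of the iron store ferritin, had 3 members. Fth1-202 stood at 288, 237 and 203 TPM, Fth1-208 at 208, 236 and 183 TPM, and Fth1-207 at 164, 188 and 137 TPM by the RSEM-format tables. Fth1-202, the member with the short intron printed above, was the highest of the 3 in replicates 1 and 3 and level with Fth1-208 in replicate 2. In the kallisto-format tables Fth1-202 stood at 241, 154 and 144 TPM and Fth1-208 at 183, 157 and 131 TPM, so Fth1-208 was the higher in replicate 2. The joint share of the 3 members was 84.9% ± 3.8, and 87.1% ± 3.2 in the kallisto-format tables, while the coding transcript Fth1-201 stood at 75.3 ± 41.3 TPM. Each member's mean share differed by less than 2 percentage points between the quantifications.

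Tcirg1-203, from the gene of a subunit of the lysosomal proton pump, had 212, 400 and 339 TPM by the RSEM-format and 196, 275 and 265 TPM by the kallisto-format tables. Replicate 1 was the lowest in both. Xdh-206, a model of 7775 bases from the xanthine dehydrogenase gene, had 366, 228 and 254 TPM, highest in replicate 1, with shares of 42.8% ± 5.8 and 35.5% ± 5.5. Sat1-205, of the spermidine acetyltransferase gene, varied least among the 15 highest by the RSEM-format tables, at 304, 287 and 278 TPM, with shares of 45.3% ± 1.3 and 40.3% ± 0.8. Hnrnpa2b1-208, from a gene for an RNA-binding splicing regulator, stood at 250, 283 and 274 TPM, and its share was close in both quantifications, 27.9% ± 0.7 and 26.2% ± 0.2. Ms4a7-205, from a macrophage membrane protein gene, stood at 262, 211 and 204 TPM and made up 72.2% ± 2.5 of the gene by the RSEM-format but 52.8% ± 3.7 by the kallisto-format tables.

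H2-K1-215 and Mx1-208 were the 2nd and 4th highest members by the RSEM-format tables although they contain little intron. H2-K1, a classical MHC class I heavy chain, presents peptides to T cells. H2-K1-215 has 457 bases, 4.4% of them intronic, and stood at 715, 471 and 448 TPM by the RSEM-format and at 541, 179 and 226 TPM by the kallisto-format tables. Mx1, an interferon-induced GTPase, had Mx1-208 with 352 bases, 7.4% intronic, at 835, 343 and 305 TPM and at 1015, 413 and 322 TPM. In both models replicate 1 was above the others in either quantification. Mx1-206, of 409 bases and 27.6% intronic, stood at 340, 207 and 151 TPM against 593, 438 and 259 TPM.

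**Figure D3:**
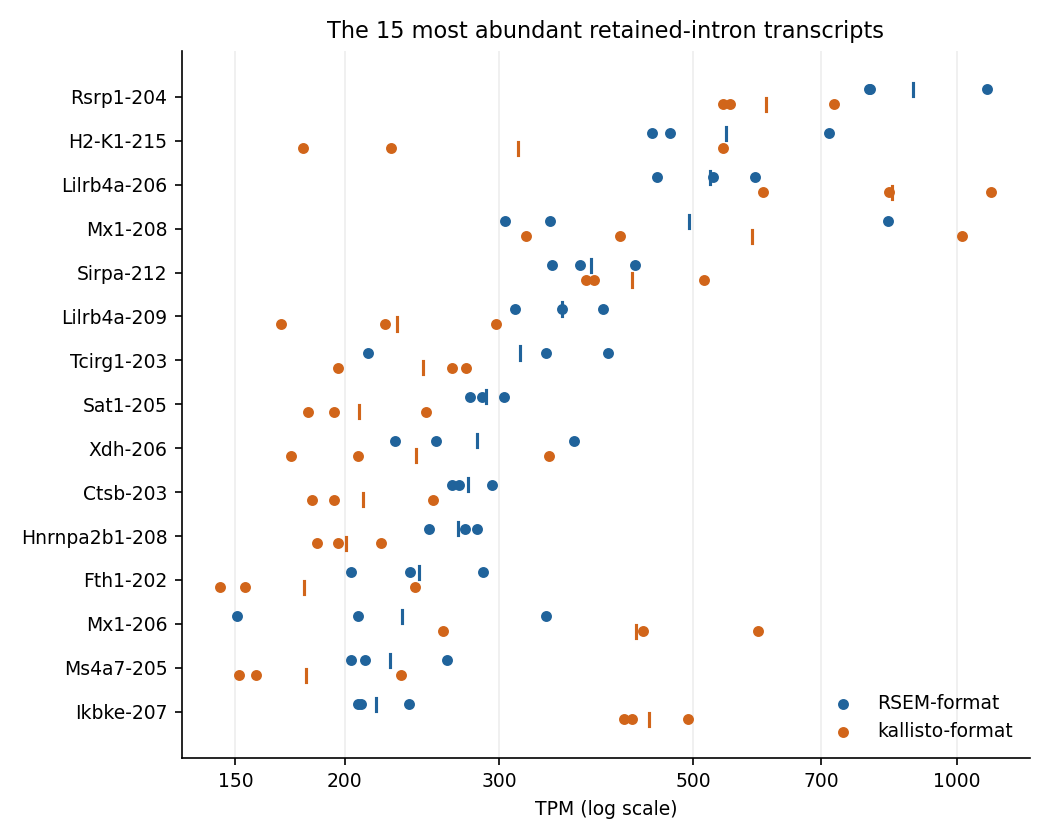
TPM (log scale) of the 15 most abundant members in the RSEM-format (blue) and kallisto-format (orange) tables; each point is 1 of 3 libraries and the bar is their mean. Rsrp1-204 is the highest in the RSEM-format tables, and Lilrb4a-206, Mx1-206, Mx1-208, Sirpa-212 and Ikbke-207 lie higher in the kallisto-format tables in all 3 libraries.

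A member made up a median of 22.3% of its parent gene's TPM by the RSEM-format tables (middle 50% of members, 14.1 to 32.5%) and 18.1% by the kallisto-format tables (11.8 to 27.9%). Library by library the medians were 22.4, 21.8 and 21.6%, and 18.2, 18.4 and 18%. The 2727 protein-coding transcripts that passed the same limit had medians of 36.2% and 24.8%. They were not limited to genes with a retained-intron transcript or with several transcripts, and a gene's only transcript has a share of 100% by definition. TPM divides by length and the members are the shorter models, with a median of 1398.5 bases against 3282. By counts, without that division, the members' median share was 13.6% of expected and 13.4% of estimated counts, against 54.1% and 43.6% for the coding transcripts. By these medians the members' share of reads was thus smaller than their TPM share, and the gap to the coding transcripts larger. This does not hold for every member. By counts 110 members were over 50% of their gene in all libraries of both quantifications, against 61 by TPM.

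Both quantifications gave 61 members more than 50% of the parent gene's TPM in all 3 libraries (3.02%). The same held for 425 of the 2727 coding transcripts that passed (15.6%) and for 19.0% of all transcripts at 10 TPM or more. A member was the highest transcript of its gene in all libraries of both in 305 of 2018 cases. For all transcripts at the limit it was 1877 of 6058 (31.0%). The figures for all transcripts include genes with 1 annotated transcript, whose share is 100% by definition. The coding transcripts were not limited to genes of several transcripts either. Among members with a mean of 100 or more expected counts in protein-coding genes of 3 or more transcripts, the 10 of highest RSEM-format share came from Ccdc59, Tmem132a, Neu1, Tap2, Slc25a37, 9030025P20Rik, Arglu1, Ssu72, Klf13 and Dok3. Neu1 encodes the lysosomal sialidase: Neu1-202, which holds 1 whole intron, stood at 19.2, 24.6 and 23.3 TPM and made up 92.1% ± 4.7 and 87.6% ± 3.7 of the gene. Arglu1 encodes an arginine- and glutamate-rich splicing regulator: Arglu1-204 stood at 50.9, 53.2 and 43.5 TPM with shares of 81.6% ± 4.0 and 74.7% ± 2.9. In both genes all libraries lay far above 50%.

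Klf13-203, of a zinc-finger transcription factor gene, is a model of 1 exon with 92.3% intronic bases and made up 79.7% ± 1.6 and 61.4% ± 3.2. Dok3-203, of an adaptor protein gene, made up 79.0% ± 8.2 and 78.2% ± 6.8. Slc25a37 encodes mitoferrin, the mitochondrial iron importer, and Slc25a37-203 made up 88.6% ± 9.4 by the RSEM-format but 58.2% ± 2.7 by the kallisto-format tables. Tap2 encodes a subunit of the peptide transporter for MHC class I, and its member moved further: Tap2-202 stood at 29.1, 27.9 and 25.1 TPM and at 30.3, 24.8 and 23.3 TPM, close in level, yet its share was 91.6% ± 2.4 against 53.0% ± 2.1. The non-coding Tap2-205 of 344 bases was listed at 0 in all 3 RSEM-format tables and stood at 18.9 ± 3.72 TPM in the kallisto-format tables.

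Exons of another gene overlapped 298 members, 121 on the same strand and 204 on the opposite strand, and 49 held the gene of a small RNA. Strand handling is not given in the sources used here, so the reads of these members and of the overlapping genes cannot be told apart. Tmem132a-203 made up 94.3% ± 2.8 and 92.8% ± 1.6 of its gene but overlaps an exon of the opposite-strand gene Slc15a3, a peptide transporter gene, which stood at 74.5 ± 8.14 TPM. Ccdc59-202, at 94.3% ± 1.4 and 80.8% ± 5.2, overlaps Mettl25 on the opposite strand, at 8.44 ± 1.31 TPM. Ikbke-207 overlaps the antisense gene Gm28913, which stood at 109 ± 15.7 TPM by the RSEM-format and 334 ± 94.5 TPM by the kallisto-format tables. Of the 61 members above 50%, 15 overlap another gene. Srsf2-203, Son-213 and Cxcl10-204, described below, overlap the opposite-strand genes Mettl23 (12.0 ± 2.41 TPM), Donson (9.08 ± 1.07 TPM) and Art3 (4.74 ± 3.46 TPM). Thoc1-211, also below, overlaps the opposite-strand gene Usp14, at 49.9 ± 2.52 TPM, and Parp14-202 the same-strand gene Gm49730, at 62.9 ± 20.2 TPM. Tap2-202 overlaps the opposite-strand genes Gm15821 (8.63 ± 1.17 TPM) and Gm20496 (0.893 ± 0.427 TPM), and Slc25a37-203 overlaps Gm31748 (3.01 ± 1.22 TPM) and Gm27223, which was listed at 0 in the RSEM-format tables. Stab1-204 overlaps Nt5dc2 (4.81 ± 1.05 TPM) on the opposite strand. Where 1 level is given, it is the RSEM-format one. By the kallisto-format tables Mettl23 stood at 17.9 ± 2.29, Donson at 43.2 ± 8.14 and Art3 at 6.68 ± 4.80 TPM. Usp14 stood there at 83.4 ± 1.79, Nt5dc2 at 15.5 ± 1.36 and Slc15a3 at 76.9 ± 17.7 TPM. Mettl25 stood at 14.0 ± 3.79, Gm15821 at 9.43 ± 1.41 and Gm31748 at 3.30 ± 1.04 TPM. Lower there were Gm49730, at 52.5 ± 21.4 TPM, and Gm20496, at 0.486 ± 0.119 TPM.

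**Figure D4:**
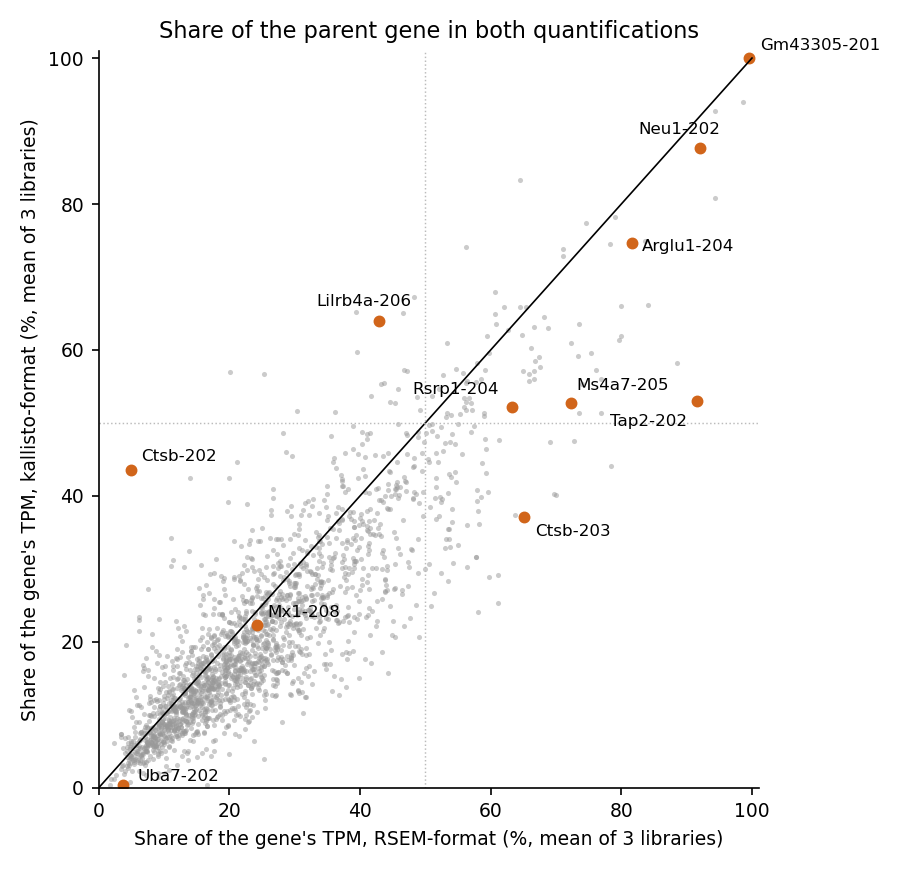
Mean share of the parent gene's TPM (%) of each of the 2018 members in the RSEM-format (x axis) and kallisto-format (y axis) tables, with the line of equal share and dotted lines at 50%. Most points lie under the line, as do Tap2-202 (91.6% and 53.0%) and Ctsb-203; Ctsb-202 lies far above it (4.9% and 43.6%).

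The kallisto-format tables, which had no part in the choice, put 1750 of the 2018 members at 10 TPM or more in all 3 libraries (86.7%), against 82.9% of all transcripts chosen by the same limit. Another 59 were below 10 TPM in all 3, and 5 were below 1 TPM in at least 1. The median log2 ratio of kallisto-format to RSEM-format TPM, with 0.1 added to each, was −0.13 over members and −0.23 over the coding transcripts. Over members it was 0.01, −0.26 and −0.16 in replicates 1, 2 and 3. Across members the log2 shares of the 2 quantifications had a Pearson correlation of 0.849 (n = 2018), which describes values made from the same reads. The share differed by under 5 percentage points for 1125 members (55.7%) and by more than 20 for 65. It was lower in the kallisto-format tables in all libraries for 1360 members and higher in all for 405. These counts of shares were not made over all transcripts at the limit. From RSEM-format to kallisto-format the median share fell from 22.3% to 18.1% over members. Over the coding transcripts it fell from 36.2% to 24.8%. Both sets were chosen on RSEM-format TPM, which favours higher values in those tables, and the part of that choice was not tested.

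A difference of more than 2-fold in all 3 libraries was found for 61 members with the kallisto-format value higher (3.02%) and for 20 with it lower (0.991%). Over all 6058 transcripts at the same limit the figures were 3.14% and 4.16%. The upward share was thus near that of all transcripts and the downward share below it. These folds compare TPM as listed, and they were not counted again on rescaled TPM. Ctsb encodes cathepsin B, a lysosomal protease, and its members are ordered differently by the 2 quantifications in part of the libraries. Ctsb-203 stood at 294, 270 and 265 TPM by the RSEM-format and 252, 183 and 194 TPM by the kallisto-format tables. Ctsb-202, which is 801 bases long and 11.4% intronic, stood at 15.3, 26 and 20.9 TPM against 228, 269 and 239 TPM. Ctsb-202 was thus above Ctsb-203 in replicates 2 and 3 of the kallisto-format tables and below it in replicate 1, as in all RSEM-format tables. The coding transcript Ctsb-201 changed less, from 127 ± 10.8 to 109 ± 7.74 TPM, and both members together held 70.0% ± 1.9 and 80.6% ± 0.3 of the gene.

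Gm43305-201, from a non-coding gene of 2 transcripts, stood at 24.4, 22.3 and 17 TPM against 234, 188 and 154 TPM, so its share was near 100% in both while its level was not. Lgals8-210, of the galectin-8 gene, stood at 20.8 ± 1.99 against 87.1 ± 14.9 TPM, and Samhd1-210, of a dNTP-degrading enzyme gene, at 83.0 ± 70.7 against 232 ± 100 TPM. Lilr4b-210 (34.0 ± 11.1 against 137 ± 57.4 TPM), Gm14391-205 (15.4 ± 1.03 against 56.3 ± 2.32 TPM) and Rasgef1b-208 (28.1 ± 4.95 against 95.4 ± 18.7 TPM) were also among the largest upward differences. In the other direction Lrp1-208, of a large endocytic receptor gene, stood at 44.2 ± 8.45 by the RSEM-format and 0.919 ± 0.539 TPM by the kallisto-format tables. Uba7-202 was listed at 0, 0 and 4.51 TPM in the kallisto-format tables against 11.8, 14.8 and 23.8 TPM, so its level depends on the quantifier and on the library. The other 6 are Nfxl1-205, Lilrb4a-203, Stab1-204, Rps24-204, Prrc2a-204 and Safb2-214.

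Among the 1227 parent genes, 786 had 1 member, 254 had 2, 98 had 3 and 89 had 4 or more. The members of a gene jointly made up a median of 39.2% of its TPM by the RSEM-format and 32.0% by the kallisto-format tables, while the coding transcripts of these genes made up 36.3% and 32.7%. These are shares of TPM, which divides by length, and members had a median length of 1398.5 bases against 3282 for the coding transcripts that passed. They are not shares of reads, and joint shares by counts are not given here. In 193 genes (15.7%) the joint share was above 50% in all libraries of both. The rule ties membership to the level of the gene, since a gene's TPM includes that of its members, so the shares by gene level are a description. Of the 3837 protein-coding genes at 10 TPM or more with an annotated retained-intron transcript, 31.6% had a member. The share was 0.871% of 1148 genes at 10 to 20 TPM, 19.5% of 1576 at 20 to 50, 72.3% of 689 at 50 to 100, 92.0% of 274 at 100 to 200 and 98.0% of 150 at 200 TPM or more. The 3 genes at 200 TPM or more without a member were Nxf1, an mRNA export receptor, Itsn1, an endocytic scaffold, and Leng8, named because there were so few. Their highest retained-intron transcripts averaged 5.91, 12.1 and 6.52 TPM.

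**Figure D5:**
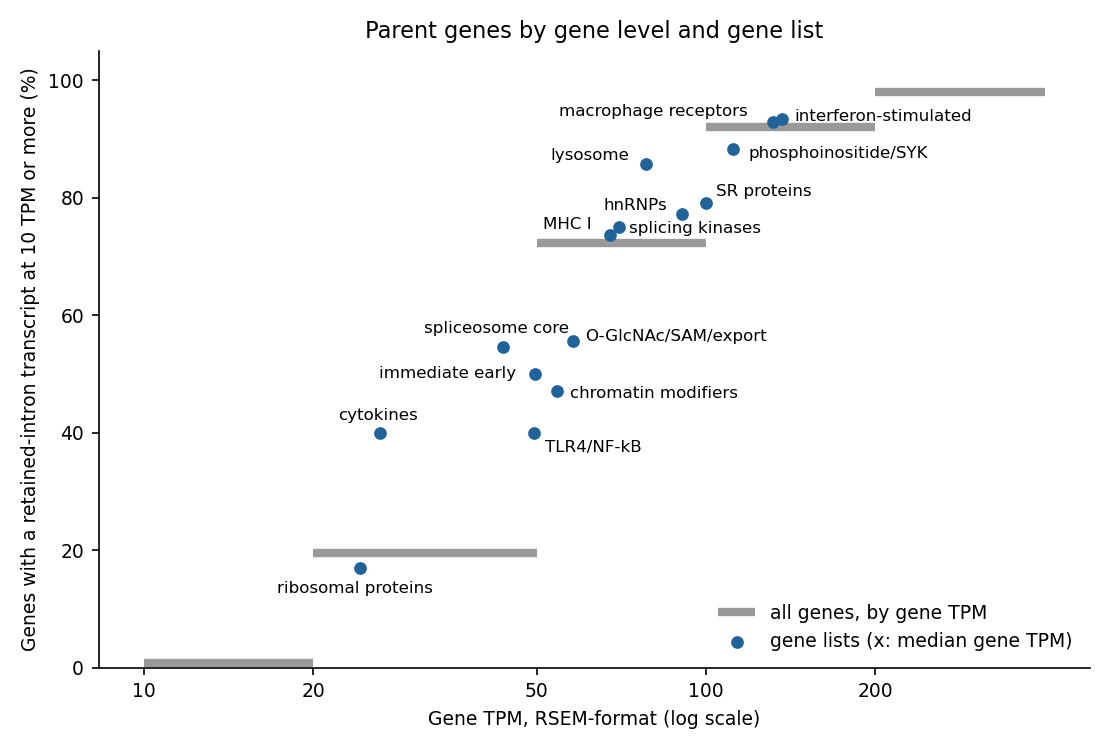
Share of protein-coding genes at 10 TPM or more with an annotated retained-intron transcript that had a member (%), against gene TPM (log scale). Grey bars are all such genes in 5 ranges of gene TPM, the last open upwards, and blue points are 15 gene lists at the median gene TPM of their genes; lists of highly transcribed genes lie high, as do all genes of that level.

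The gene lists below differ in gene level, so each count is given with the median gene TPM of its genes, and no list was tested against the others. Each count is out of the list's genes at 10 TPM or more that have an annotated retained-intron transcript, not out of the whole list. Among genes of SR proteins and SR-related splicing factors, 19 of 24 genes had a member (79.2%, median gene TPM 99.9), with a median joint share of 50.1% by the RSEM-format and 41.9% by the kallisto-format tables. SR proteins bind exonic enhancers and recruit the spliceosome. Srsf2-203 stood at 109, 165 and 122 TPM and made up 58.0% ± 1.6 and 58.2% ± 2.1 of Srsf2. Srsf5-212 stood at 173, 204 and 226 TPM with shares of 35.6% ± 1.9 and 30.5% ± 2.6, and Son-213, of a nuclear speckle protein gene, at 196, 146 and 118 TPM with 34.8% ± 4.8 and 38.5% ± 5.2. The highest joint share on this list by the RSEM-format tables was 81.7% ± 1.8, that of the 5 members of Srsf11, which was 64.1% ± 0.5 by the kallisto-format tables.

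The kinases that act on SR proteins had members in 6 of 8 genes (75%, median gene TPM 70.0). Clk1-204 was level between libraries, at 42.3, 40.5 and 43.4 TPM, and Clk4-213 also, at 19.8, 20.6 and 20.3 TPM. All 3 Clk1 members together held 52.5% ± 2.7 of the gene by the RSEM-format and 55.8% ± 2.1 by the kallisto-format tables, while coding transcripts held 1.6% and 1.5%. Of hnRNP and other regulator genes 27 of 35 had a member (77.1%, median gene TPM 90.7), and of spliceosome core genes 12 of 22 (54.5%, 43.6 TPM). Rbm39, an RNA-binding splicing factor with 25 annotated transcripts, had 7 members with a joint share of 52.6% ± 0.9 and 37.5% ± 2.6. Sf3b1-203, of a branch-point recognition subunit, stood at 85.8, 85.0 and 74.3 TPM with a share of 34.1% ± 2.5, and Ddx39b-204, of an RNA helicase that also serves mRNA export, at 63.3, 103 and 80.7 TPM with 48.9% ± 2.7.

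Genes for macrophage surface receptors had a member in 13 of 14 cases (92.9%, median gene TPM 132). Lilrb4a and Lilr4b, immunoglobulin-like receptors, had 7 members each, as did the ubiquitin-activating enzyme gene Uba7, the zinc-finger gene Zc3h7a and Rbm39. The genes Stab1 and Ctsa also had 7, and of these 7 genes the 5 whose members had the highest summed RSEM-format TPM were followed. The 7 Lilrb4a members held 99.3% ± 0.1 and 99.7% ± 0.1 of a gene level of 1220 ± 129 TPM, and its 4 coding transcripts were near 0: Lilrb4a-201 and Lilrb4a-212 were listed at 0 in every library of both, and Lilrb4a-202 was the highest, at 0.313 ± 0.543 and 1.30 ± 1.26 TPM. Lilrb4a-206 stood at 589, 455 and 526 TPM by the RSEM-format and at 1096, 600 and 836 TPM by the kallisto-format tables, so the ranges do not overlap. Lilrb4a-209 went the other way, at 395, 313 and 354 TPM against 298, 169 and 222 TPM. Exons of all of these members overlap Gm49339, a separately annotated coding gene on the same strand. It stood at 85.1 ± 12.0 TPM by the RSEM-format and 66.2 ± 15.2 TPM by the kallisto-format tables. How the quantifiers divided reads between the 2 genes was not tested. The 7 Lilr4b members held 76.7% ± 3.6 and 82.9% ± 3.0, the highest by the RSEM-format tables being Lilr4b-207 at 170, 142 and 177 TPM. Exons of 6 of them overlap Gm49339 as well. The 7 Zc3h7a members held 69.6% ± 1.8 and 69.7% ± 1.2.

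Sirpa, an inhibitory receptor that binds CD47, had 1 member: Sirpa-212 stood at 429, 372 and 345 TPM and made up 52.0% ± 2.5 and 37.2% ± 2.2 of the gene. Pirb, a paired immunoglobulin-like receptor, had Pirb-202 at 228, 208 and 178 TPM with shares of 49.2% ± 1.0 and 51.8% ± 1.5. Both were highest in replicate 1. Of phosphoinositide, SYK and phosphatase signalling genes 15 of 17 had a member (88.2%, median gene TPM 112). Ptprc, the CD45 phosphatase, had Ptprc-202 at 201, 148 and 142 TPM, a model with 91.5% intronic bases, and its 5 members held 76.0% ± 3.9 and 57.3% ± 3.8. Pik3ap1-202, of an adaptor that links receptors to PI3-kinase, stood at 128, 122 and 86.7 TPM with a share of 45.6% ± 2.4.

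Of 49 interferon-stimulated genes at 10 TPM or more, 30 had an annotated retained-intron transcript. A member was found in 28 of those 30 (93.3%, median gene TPM 136), with median joint shares of 39.1% and 31.1% in the 2 quantifications. Parp14-202, of an ADP-ribosyltransferase gene, stood at 219, 186 and 161 TPM and Ifi204-202, of a DNA sensor gene, at 226, 187 and 137 TPM, with shares of 29.5% ± 1.6 and 45.8% ± 2.6. The 4 Irf7 members, from a transcription factor gene of the interferon response, held 79.9% ± 2.5 and 81.9% ± 2.9. The single Oas2 member, from a gene for an RNA-activated synthetase, held 4.7% ± 1.0 and 3.1% ± 0.7, the first of which is the lowest RSEM-format joint share of all parent genes. Uba7, which activates the ubiquitin-like protein ISG15, had joint shares of 78.1% ± 0.4 and 72.6% ± 4.7, and its coding transcripts held 3.2% and 0.7%. Of TLR4 and NF-kB signalling genes 10 of 25 had a member (40.0%, median gene TPM 49.5). Ikbke, a kinase of this pathway, had 4, with a joint share of 61.2% ± 0.7 and 67.9% ± 1.4; Ikbke-207 stood at 237, 207 and 209 TPM against 494, 425 and 417 TPM, more than 2-fold higher in the second set of tables in replicates 1 and 2 and just under it in replicate 3.

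Cytokine genes had a member in 2 of 5 cases and immediate early genes in 2 of 4 (median gene TPM 26.3 and 49.6). Cxcl10 encodes a chemokine induced by interferon, and Cxcl10-204, a model of 1 exon that holds 3 annotated introns whole, stood at 73.1, 24.1 and 11.6 TPM. Ccl5-202, also of a chemokine gene, stood at 90.6, 75.8 and 28.1 TPM. Both members were highest in replicate 1 and lowest in replicate 3, with RSEM-format shares of 37.1% ± 7.3 for Cxcl10-204 and 41.5% ± 8.1 for Ccl5-202. The median share of these 2 members was 39.3% by the RSEM-format and 45.8% by the kallisto-format tables. The Cxcl10 gene as a whole stood at 161, 71.9 and 35.8 TPM, in the same order, while Ccl5 stood at 192, 236 and 62.1 TPM and was highest in replicate 2. Klf6-202, of a zinc-finger factor gene, stood at 23.1, 27.0 and 16.8 TPM and Plk2-203, of a kinase gene, at 15, 10.6 and 12.8 TPM.

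Lysosome and proton pump genes had a member in 24 of 28 cases (85.7%, median gene TPM 78.2), with median joint shares of 46.1% and 39.5%. The 6 Tcirg1 members held 61.5% ± 1.3 and 59.0% ± 1.7 of their gene, and the 5 members of Atp6v1b2, another pump subunit, held 80.7% ± 1.2 and 85.1% ± 0.7. Of MHC class I and antigen presentation genes 14 of 19 had a member (73.7%, median gene TPM 67.4). The 6 H2-K1 members held 72.4% ± 6.9 and 68.5% ± 8.5, whereas H2-D1-204, the single member of the other classical gene, stood at 132, 110 and 94.8 TPM with a share of 20.5% ± 1.6.

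Cytoplasmic ribosomal protein genes had members in 8 of 47 cases (17%), at the lowest median gene TPM of the lists, 24.3. Rpl3-204 stood at 33.0, 53.0 and 45.3 TPM, and the 3 Rpl3 members held 93.1% ± 1.6 and 86.6% ± 1.3 of the gene. Rps24-204, which is 81% intronic, stood at 18.7, 15.5 and 12.7 TPM but at 3.46, 1.84 and 1.89 TPM in the kallisto-format tables. Chromatin modifier genes had members in 16 of 34 cases (47.1%, median gene TPM 54.4); Tet3-205, of a 5-methylcytosine dioxygenase gene, stood at 42.7, 48.2 and 43.2 TPM, with 97.1% intronic bases and shares of 41.0% ± 0.8 and 35.9% ± 0.3. Genes of O-GlcNAc cycling, S-adenosylmethionine synthesis and nuclear export had members in 5 of 9 cases (55.6%, median gene TPM 57.9). Ogt-204, of the O-GlcNAc transferase, a gene known for a regulated intron, stood at 87.4, 83.9 and 64.5 TPM with a share of 29.9% ± 2.7 and 30.7% ± 1.5. Thoc1-211, of an mRNA export complex subunit, stood at 21.7, 22.3 and 19.9 TPM.

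The spread between libraries was slightly larger for members than for coding transcripts. The median SD of log2(TPM + 0.1) over the 3 libraries was 0.216 for members and 0.193 for the coding transcripts that passed. Members rested on fewer reads, with a median of 412 against 1003 expected counts per library. For the 1631 members with 100 or more expected counts in every library the median SD was 0.206. The coding transcripts were not restricted in this way. The largest SDs among members with a mean of 100 expected counts or more were those of Cxcl10-204, Abcc5-205 (52.8, 11.9 and 12.9 TPM), Mx2-205 (52.2, 24.6 and 11.0 TPM), Nfxl1-205 (79.0, 23.2 and 24.3 TPM) and Samhd1-210 (165, 41.1 and 43.3 TPM). All 5 were highest in replicate 1. Over the whole set 892 members were highest in replicate 1 (44.2%), 879 in replicate 2 (43.6%) and 247 in replicate 3 (12.2%). Among the coding transcripts that passed, the shares were 39.9%, 41.7% and 18.4%, so replicate 3 was least often the highest in both sets. All protein-coding genes together summed to 299345, 308678 and 273051 RSEM-format TPM in replicates 1, 2 and 3. Which library was highest was not counted again on rescaled TPM. Of the 51 members in interferon-stimulated genes 40 were highest in replicate 1 (78.4%), with a median log2 difference of 0.66 from replicate 3. Over all members that median difference was 0.17. Of the 54 in lysosome and proton pump genes 11 were highest in replicate 1 (20.4%), and 30 were highest in replicate 2. The labelled RNA input was also highest in replicate 1, and its part in these differences was not tested.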

How the data were processed

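Total RNA of the chromatin fraction was sequenced in 3 libraries of 1 group. The authors deposited, for each library, an RSEM-format transcript table with expected counts and TPM and a kallisto-format table with estimated counts and TPM, on mm10 with GENCODE release M21, per the file headers and notes. How the quantifiers were run, strand handling included, is not given in the sources used here. TPM is scaled over everything in a table, tRNA and spike-in entries included. Total counts per library are given above; reads carry no molecular identifiers.

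The members and gene lists were chosen with earlier results of these data known. Transcripts were matched by identifier, and a share is a transcript's TPM divided by the sum over its gene, which differed from the deposited gene TPM by at most 0.04. Exon structures came from the GENCODE M21 annotation, whose transcripts matched all 141767 entries. Intronic bases are those between the outer ends of the gene's coding exons and in none of them. The structure step was checked on 200 simulated single-exon transcripts, each beside a single coding transcript, and all were recovered. Transcripts of several exons, and those over sites of both kinds without a whole intron, were not simulated. For each member the RSEM-format tables also give an interval of TPM; its upper bound was a median of 1.27 times the lower, and 487 members lay above the bound in all libraries, so only its width was used.

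Named are the 15 highest members, the 10 of highest share (protein-coding gene, 3 or more transcripts, mean expected count of 100 or more), the 8 with the largest difference between quantifications in each direction, 3 on either side of the limit, up to 4 per list for 15 lists, the members of 5 of the 7 genes with most members (7 each, the tie broken by the members' summed RSEM-format TPM), the 5 with the largest spread, and those with printed sequences. Genes named only for a joint share, for U12-type letters or for having no member were named after their values were seen. The list symbol Oga was not found. Python 3.11.15, numpy 2.4.6, pandas 2.3.3 and matplotlib 3.10.9 were used. Alternatives were other limits, counts for TPM, rescaled TPM, other pseudocounts and leaving out each library. Results on a few genes that the naming rule covers are not reported here.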

Additional observations from a re-analysis of the deposited data

How the results depend on the processing

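No paired analysis was possible because all 3 libraries belong to 1 group. The number of members depends on the limit: it was 4480 at 5 TPM, 742 at 20 TPM and 6912 when TPM was rescaled over protein-coding genes alone. Of the 2771 retained-intron transcripts that passed in the kallisto-format tables, 1750 were members. With the limit at 5 TPM in both sets of tables, 4094 of the 4480 also passed in the kallisto-format tables. With both rescaled, 5714 of the 6912 did. Rescaling raises every TPM, so a limit of 10 then lets in transcripts of lower level. For the 2018 members it moved the median log2 difference between quantifications from −0.13 to −0.58. By counts the median share was 13.6% (RSEM-format) and 13.4% (kallisto-format), and 110 members, not 61, were more than 50% of their gene. The median share was 22.7% by the RSEM-format tables for the 1631 members with 100 or more expected counts in every library, and 19.0% by the kallisto-format tables for members that also passed there, an alternative added after seeing the data. Leaving out 1 library at a time gave a median share of 21.9 to 22.4% (RSEM-format) and 18 to 18.4% (kallisto-format), a median SD of 0.16 to 0.20, 2077 to 2321 members and 63 to 71 members above 50%. Both counts need every library kept to pass, so they can only stay or rise when 1 is left out. The SD then rests on fewer libraries and was each time below the 0.216 over all of them. At 5 TPM the genes with a member rose from 8 to 31 on the ribosomal protein list, 10 to 17 on the TLR4 list, 16 to 25 on the chromatin modifier list, and 2 to 4 on the cytokine and immediate early lists. The members that overlap no exon of another gene (1720, also added) had median shares of 22.1% and 18%. The causes were not tested. At this depth 387 members had under 100 expected counts in at least 1 library.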
